A study of Mus musculus with 2 samples.

Results

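Arginine metabolism is described here through 6 genes: the transporters Slc7a1 and Slc7a2, the inducible nitric oxide synthase Nos2, the recycling enzymes Ass1 and Asl, and the ornithine decarboxylase Odc1. They were chosen by symbol, as 6 of the 34097 genes listed in the files, for their place in the pathway. The study sequenced the RNA of single cells from 2 mouse tumours on a 10x Genomics system, in which each captured transcript carries a tag and is counted once as a unique molecular identifier (UMI). Both tumours are labelled as xenografts of LLC (Lewis lung carcinoma, a mouse line), and the series set out to see what a knockdown of Gfpt2, an enzyme of the hexosamine pathway, does to the tumour's immune compartment. The control library (NC) came from a tumour labelled as control, and the Gfpt2 knockdown library (SH) came from a tumour treated with shRNA against this gene. The labels used here give no mouse strain, sex, age, hairpin or number of animals, and each group is 1 library. No difference could therefore be set against a spread between replicates, no test was run, and all 95% intervals cover counting error only.

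Arginine enters cells mainly through cationic amino acid transporters. In 1 route it is split into ornithine and urea, and ornithine feeds polyamine and proline synthesis, whereas nitric oxide synthases turn it into nitric oxide and citrulline, which Ass1 and Asl rebuild into arginine. In mouse macrophages Nos2 is the classic gene of inflammatory activation, and its output depends on arginine taken up from outside the cell.

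Cells were sorted into classes by transcript levels per 10000 UMIs. Macrophages had at least 10 UMIs of C1qa, C1qb and C1qc together, monocytes at least 20 of Lyz2 and under 5 of C1q, and tumour-like cells no Ptprc (the leukocyte antigen CD45), under 5 of Lyz2 and at least 5000 UMIs in all. Macrophages numbered 3990 (control) and 4556 (knockdown), with a median of 5380 and 3954 UMIs per cell. Monocytes numbered 144 and 40, and tumour-like cells 4974 and 5177, with medians of 18744.5 and 14702 UMIs. T cells, gated on Cd3d, Cd3e and Cd3g (473 and 421 cells, medians of 2767 and 2560 UMIs), served as a reference that should lack Nos2. Summed UMIs of a class ranged from 107404 in the knockdown monocytes to 103413295 in the control tumour-like cells. Gfpt2 itself had 211 UMIs in control and 57 in knockdown tumour-like cells, 2.04 and 0.653 counts per 1000000 (CPM), a log2 ratio of -1.64 (-2.09 to -1.21). The LLC epithelial markers Krt8, Krt18 and Epcam were at most 0.0917 CPM each in tumour-like cells. The 6 fibroblast markers, none at 0, summed to 2505 CPM in control and 2805 CPM in knockdown tumour-like cells. Of them, the collagen gene Col3a1 was in 94.9% and 97.5% of the cells and Dcn in 92.1% and 92.1%. The rest of the list was less common in control tumour-like cells, with Pdgfra in 44.8%, Col1a1 in 13.4%, Col1a2 in 6.41% and Lum in 0.422%. The sparse epithelial markers and the common Col3a1 and Dcn go against the name, whereas Col1a1, Col1a2 and Lum were not common. Xist, read as a host cell marker, had a UMI in 4.22% of control tumour-like cells, against 79.7% of control macrophages and 63.9% of control monocytes. The name "tumour-like" stands here only for the gate, which by itself does not tell tumour cells from fibroblasts. What these cells are was not tested. Macrophages held all 7 fixed macrophage markers, with Csf1r in 67.8% of control and 51.8% of knockdown cells. A macrophage gate can also catch RNA of other cells, and 6 genes that marked tumour-like cells in earlier results of these data (Tnnt2, Prkg2, Sdk1, Grm3, F3 and Cryab, none of them at 0) summed to 69.5 CPM in control and 192 CPM in knockdown macrophages, against 419 and 540 CPM in tumour-like cells. The fibroblast markers summed to 295 and 819 CPM in macrophages. The libraries shared 37 cell barcodes.

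The genes differed in which class carried their transcripts. Of all Slc7a2 UMIs, 91.9% (control) and 95.6% (knockdown) lay in macrophages. Of all Nos2 UMIs, 83.0% and 81.3% lay in tumour-like cells, and the shares were 80.7% and 77.8% for Slc7a1 and 80.2% and 77.1% for Odc1. Tumour-like cells held 74.4% and 73.6% of all UMIs, so for these 3 genes the share was near or little above that of the RNA as a whole.

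**Figure D1:**
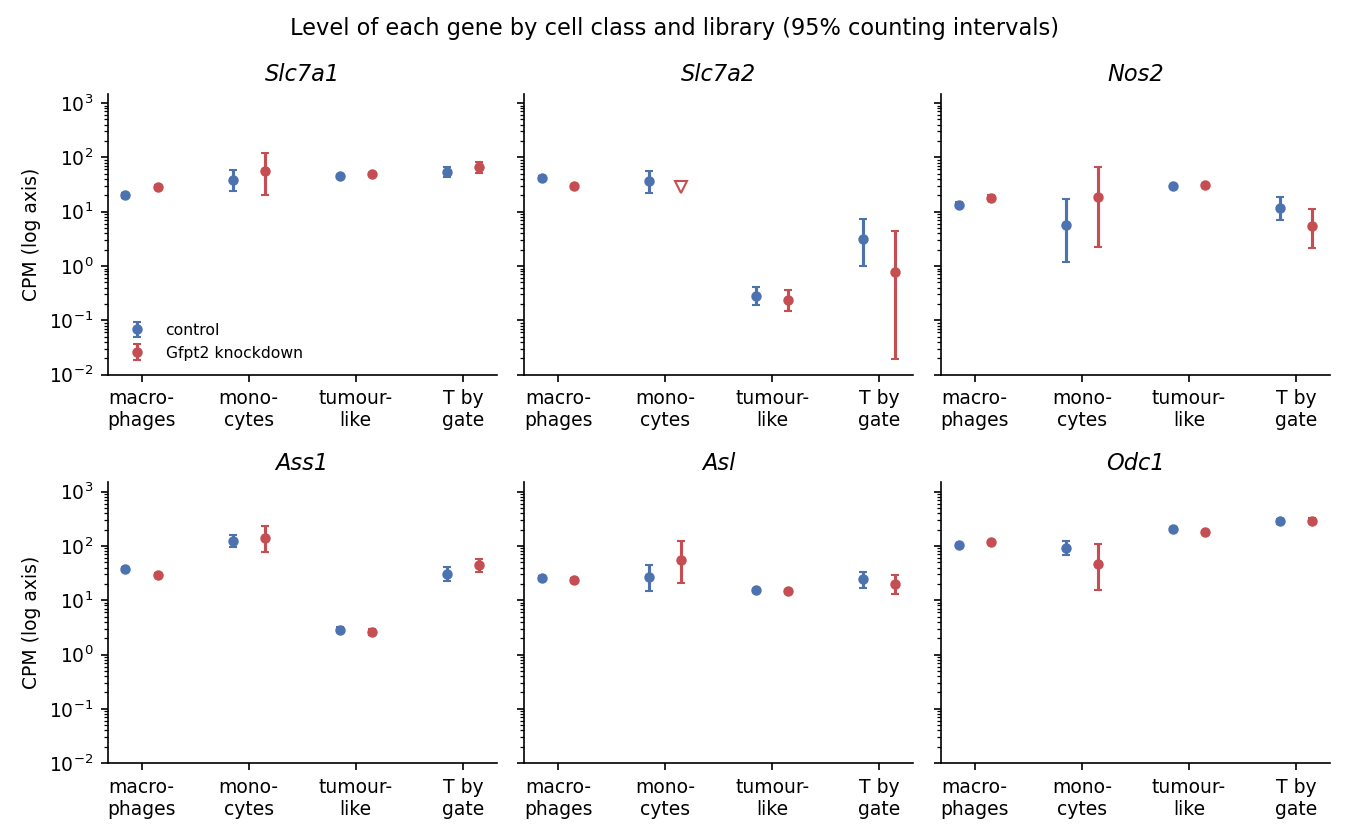
CPM (log axis) of each gene in 4 cell classes of the control (blue) and the Gfpt2 knockdown library (red), with exact Poisson 95% intervals; an open triangle marks the level of 3 counts for a class with no UMI. Ass1 and Slc7a2 were higher in macrophages than in tumour-like cells, whereas Nos2, Slc7a1 and Odc1 showed the opposite order.

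Between the libraries, a gene was counted as higher or lower when its CPM differed by over 1.5-fold, among genes with at least 100 UMIs in 1 library of the class. In macrophages all 6 genes could be counted and none was past the fold, beside 10.5% of all 10753 genes that were higher and 1.26% that were lower. Their median log2 ratio was 0.04, with 3 ratios above 0 and 3 below, and that of all genes was 0.10. TMM scaling (edgeR's trimmed mean of log ratios), which moved all macrophage ratios down by 0.10, put Slc7a2 past the fold as lower, beside 2.14% of all genes. With only macrophages of at least 5000 UMIs, Nos2 (log2 ratio 0.60) and Slc7a1 (0.72) were past the fold as higher. The share of all genes past it was not counted under that setting. In tumour-like cells 5 of the 6 could be counted and none was past the fold, beside 2.23% of 12362 genes higher and 0.736% lower. Their median log2 ratio there was -0.07, and that of all genes 0.04. In monocytes none of the 6 had enough UMIs to be counted, where 3.18% of 785 genes were higher and 13.4% lower.

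**Figure D2:**
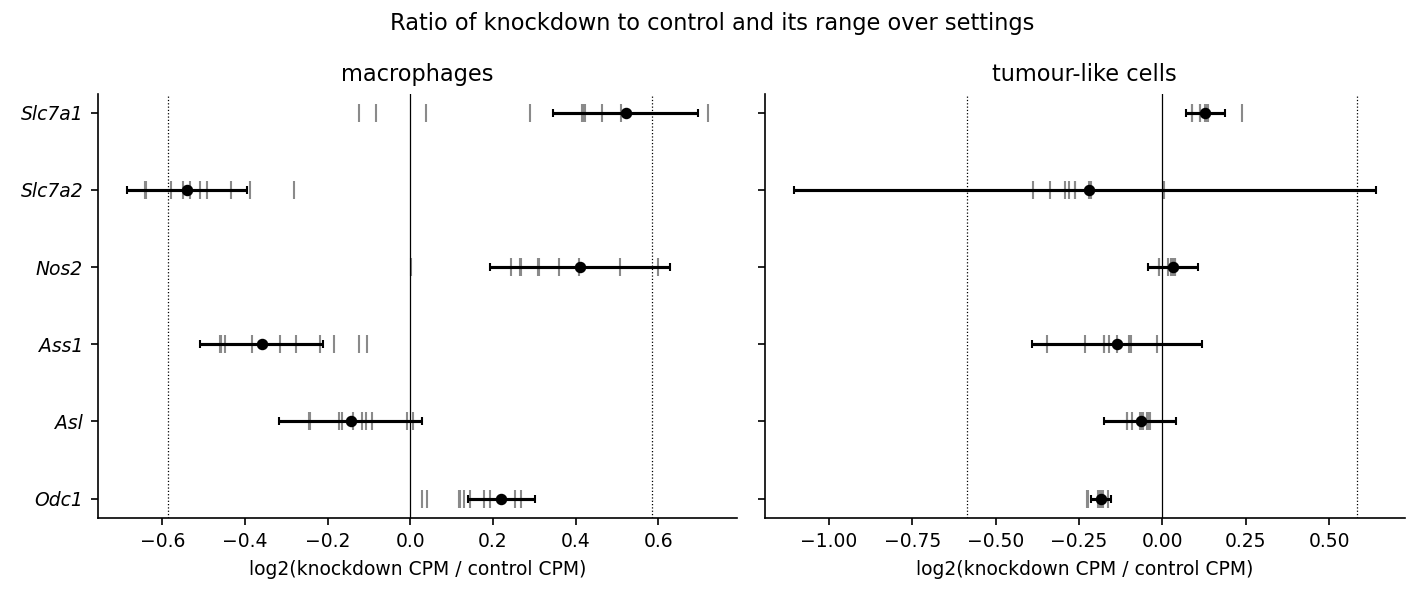
Log2 ratio of knockdown to control CPM for each gene in macrophages (left) and tumour-like cells (right); black points are the reported values with 95% counting intervals, grey ticks the values under the other settings, and dotted lines mark 1.5-fold. In macrophages Slc7a2 and Ass1 lay below 0 under every setting shown, and Slc7a1 lay on both sides of 0.

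Slc7a1 (ENSMUSG00000041313) encodes the widely expressed high-affinity cationic amino acid transporter CAT1. Its level was 46.0 CPM (44.7 to 47.3) in control and 50.3 CPM (48.8 to 51.8) in knockdown tumour-like cells, with a UMI in 49.1% and 47.2% of them. The log2 ratio was 0.13 (0.07 to 0.19), and 0.24 with every cell weighted equally. Among tumour-like cells of 5000 to 10000 UMIs the level was 42.3 CPM (36.7 to 48.5) (control) and 60.4 CPM (55.5 to 65.5) (knockdown). From 10000 to 20000 UMIs it was 37.7 CPM (35.6 to 39.9) and 48.5 CPM (46.2 to 50.8). Above 20000 UMIs it was 50.3 CPM (48.6 to 52.0) and 49.5 CPM (47.4 to 51.7). The libraries thus stood apart only in the bins under 20000 UMIs, and the cause was not tested. T cells were at 54.9 CPM (44.1 to 67.6) and 65.2 CPM (52.0 to 80.8), so the intervals of T and tumour-like cells overlapped in the control and stood just apart in the knockdown library. Macrophages were lower, at 19.98 CPM (18.2 to 21.9) (control) and 28.7 CPM (26.5 to 31.0) (knockdown). The macrophage ratio, 0.52 (0.35 to 0.70), was not past the fold, but with only cells of at least 5000 UMIs it was 0.72 (0.51 to 0.94), past it. Nor did the ratio hold its sign. Among macrophages without a UMI of the 6 tumour-like genes, Slc7a1 was 18.4 CPM (16.4 to 20.5) in the control and 16.8 CPM (14.7 to 19.3) in the knockdown, with a log2 ratio of -0.12. Among those with at least 1 such UMI it was 24.8 CPM (21.0 to 29.2) and 45.1 CPM (40.9 to 49.8), the last with an interval that overlaps that of tumour-like cells. Removing doublets at the threshold that the caller Scrublet sets for itself also turned the sign, to -0.083. That threshold removed 21.8% of knockdown cells against 9.09% of control cells.

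Slc7a2 (ENSMUSG00000031596) encodes CAT2, the inducible transporter that supplies arginine to activated macrophages. It had 1005 UMIs in control and 627 in knockdown macrophages, 42.4 CPM (39.8 to 45.1) and 29.1 CPM (26.9 to 31.5). A UMI was seen in 14.1% and 8.69% of macrophages, and in 8.87% and 7.30% once each cell was thinned to 3000 UMIs, where the intervals overlapped. The log2 ratio of the level was -0.54 (-0.69 to -0.39), just inside the fold, and -0.64 with TMM scaling. In monocytes Slc7a2 had 19 UMIs (control) and 0 (knockdown), which allows up to 27.9 CPM (3 counts) there. The control value was 36.7 CPM (22.1 to 57.3), an interval that reaches below this limit, so a difference was not detectable in monocytes. In tumour-like cells it was 0.280 and 0.241 CPM, on 29 and 21 UMIs. Thinned to 3000 UMIs, 0.141% and 0.116% of tumour-like cells were positive, within the wide intervals of T cells, 0.467% (0.0118 to 2.58) and 0.606% (0.0153 to 3.33), which rest on 1 positive cell in each library. The 2 transporters stood in opposite order in the large classes: the CAT2 level was 42.4 and 29.1 CPM in macrophages against under 1 CPM in tumour-like cells, whereas CAT1 was 2.30-fold (control) and 1.75-fold (knockdown) higher in tumour-like cells than in macrophages.

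**Figure D3:**
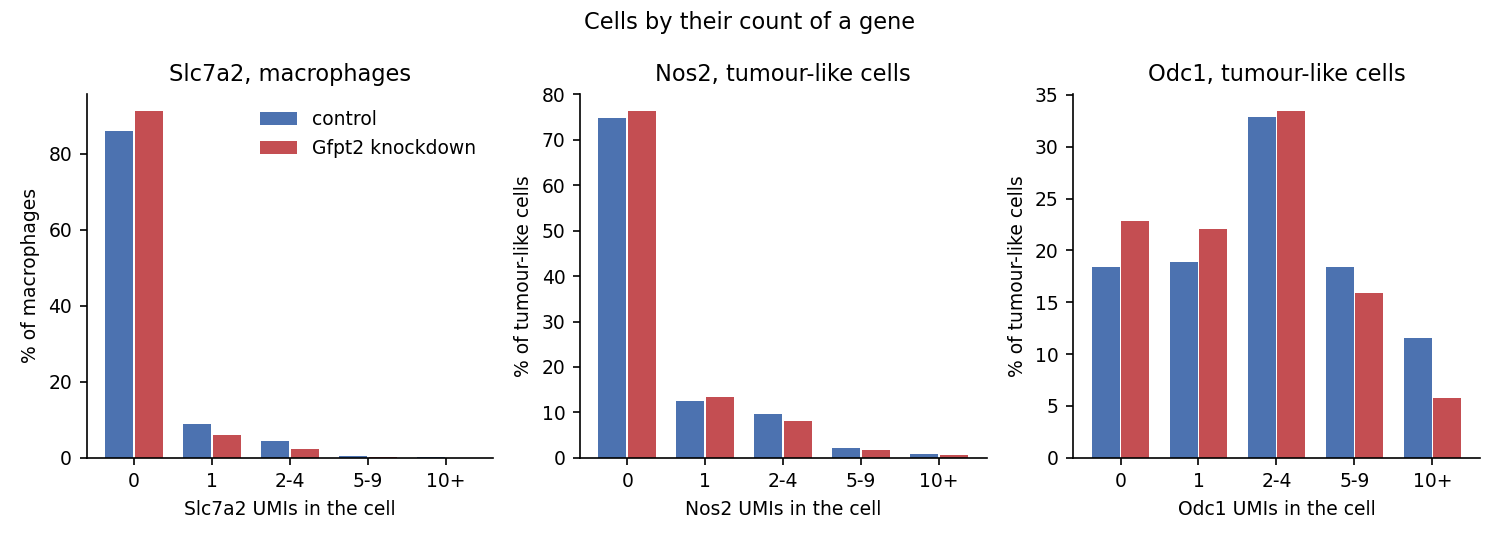
Share of cells by their UMI count of Slc7a2 in macrophages and of Nos2 and Odc1 in tumour-like cells, control (blue) and Gfpt2 knockdown (red). For Slc7a2 the knockdown bar is higher at 0 UMIs (91.3% against 85.9%), the Nos2 bars are close (74.7% and 76.4% at 0), and the Odc1 bars differ most at 10 or more UMIs (11.6% and 5.74%).

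Slc7a2 was also read in macrophages split by UMIs of the 6 tumour-like genes. These genes are sparse, each with a UMI in 25.1% to 54.2% of control tumour-like cells, so a cell with no such UMI can still hold RNA of that class. In macrophages without such a UMI (3267 control and 3159 knockdown cells) it was 45.3 CPM (42.3 to 48.6) and 34.7 CPM (31.5 to 38.1), a log2 ratio of -0.39 (-0.56 to -0.22). In the remaining macrophages (723 and 1397 cells) it was 33.4 CPM (28.9 to 38.4) and 21.5 CPM (18.5 to 24.7). The intervals of the libraries stood apart on both sides of this split. Under 5000 UMIs per cell, Slc7a2 was 37.1 CPM (32.0 to 42.8) in control and 27.2 CPM (23.6 to 31.1) in knockdown macrophages. From 5000 to 10000 UMIs it was 46.4 CPM (42.6 to 50.4) and 34.8 CPM (31.0 to 38.9), and from 10000 to 20000 it was 49.5 CPM (43.6 to 56.0) and 26.3 CPM (21.0 to 32.5). The control library was thus higher in each of these 3 bins of depth. In the 56 cells of each library above 20000 UMIs, 11 and 19 UMIs were counted, 6.78 CPM (3.38 to 12.1) and 12.4 CPM (7.47 to 19.4), with overlapping intervals. Under the other settings run, the macrophage log2 ratio lay between -0.64 and -0.28. The part of RNA from tumour-like cells in the difference was not tested further.

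**Figure D4:**
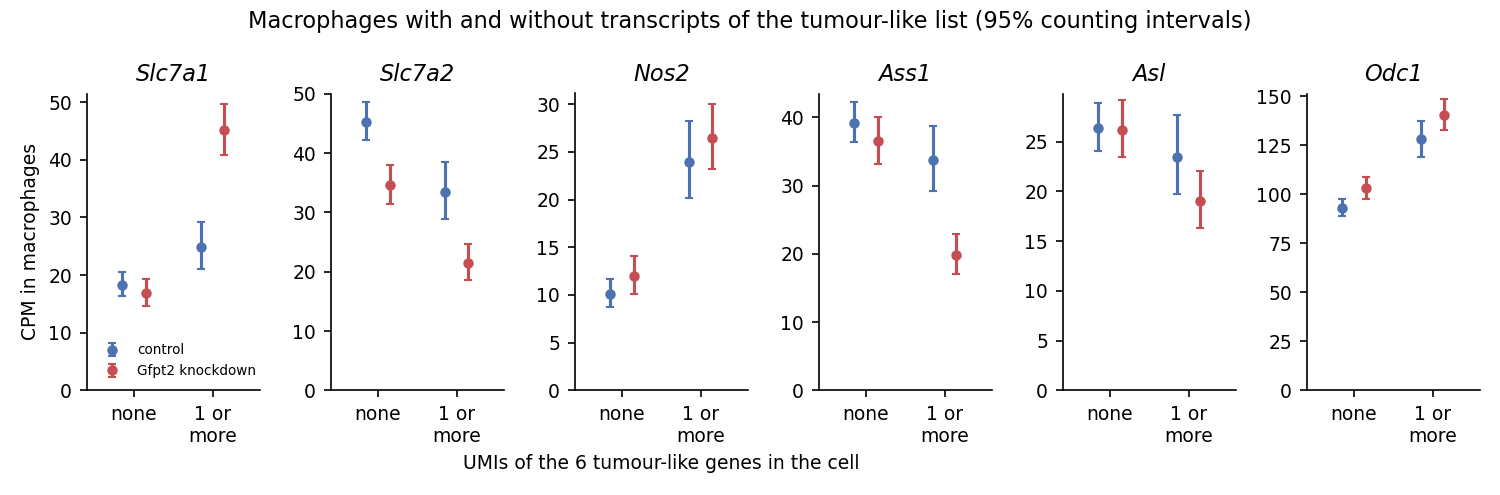
CPM of each gene in macrophages with none and with 1 or more UMIs of the 6 tumour-like genes, control (blue) and Gfpt2 knockdown (red), with 95% counting intervals. Slc7a1 and Ass1 stand apart between the libraries among cells with such UMIs and overlap among cells without them, whereas Slc7a2 stands apart in both.

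Nos2 (ENSMUSG00000020826) encodes the high-output nitric oxide synthase. Most of its transcripts came from tumour-like cells, where it had 3122 UMIs (control) and 2692 (knockdown). The level was 30.2 CPM (29.1 to 31.3) and 30.9 CPM (29.7 to 32.0), and the log2 ratio 0.03 (-0.04 to 0.11), an interval that includes 0. A UMI was seen in 25.3% of control and 23.6% of knockdown tumour-like cells. The transcripts were unevenly spread: the 10% of tumour-like cells with the most Nos2 held 71.5% and 73.3% of them, and single cells reached 35 and 28 UMIs. At 3000 UMIs per cell, 7.90% (7.17 to 8.69) and 7.69% (6.98 to 8.45) were positive, above the 1.87% (0.512 to 4.72) and 1.82% (0.377 to 5.22) of T cells.

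In macrophages Nos2 was sparse, with 322 UMIs in 185 control cells and 388 in 245 knockdown cells. That is 13.6 CPM (12.1 to 15.1) and 18.0 CPM (16.3 to 19.9), a log2 ratio of 0.41 (0.19 to 0.63), inside the fold. A UMI was seen in 4.64% (4.01 to 5.34) and 5.38% (4.74 to 6.07) of macrophages, which overlap. Thinned shares were 2.34% (1.84 to 2.94) and 3.54% (2.89 to 4.29), and both overlapped those of T cells. The T cell level was 11.7 CPM (7.06 to 18.3) in the control, which overlaps that of macrophages, and 5.44 CPM (2.19 to 11.2) in the knockdown library, where macrophages stood above it with a log2 ratio of 1.73 (0.67 to 3.05). With every cell weighted equally the log2 ratio was 0.0024. Nos2 was higher beside UMIs of the 6 tumour-like genes, at 10.1 CPM (8.69 to 11.7) and 11.98 CPM (10.1 to 14.1) in macrophages without a tumour-like UMI, and 24.0 CPM (20.2 to 28.3) and 26.5 CPM (23.2 to 30.1) in those with one. The positive share was 3.83% and 3.48% in the former and 8.30% and 9.66% in the latter, which were also deeper (medians of 6326 and 4822 UMIs against 5208 and 3602). Control monocytes had 3 Nos2 UMIs and knockdown monocytes 2. The 19 UMIs of control T cells lay in 4 cells, with 10 in a single cell, and the 7 of knockdown T cells in 7 cells.

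The genes whose level across macrophages was most like that of Nos2, by Pearson r of log-scaled levels averaged over the libraries, were Hilpda (0.21), Ero1a (0.19), Bnip3 (0.16), P4ha2 (0.16) and Ndrg1 (0.15), weak values in sparse counts that are given as a description. Nos2-positive macrophages were deeper, with a median of 7517 UMIs against 5295 in the control and 6415 against 3845 in the knockdown library, and the r of Nos2 with the logarithm of the cell's UMIs was 0.03 and 0.11. Of the 185 control and 245 knockdown Nos2-positive macrophages, 60 and 135 held a UMI of the 6 tumour-like genes. Among all macrophages, 18.1% and 30.7% held one. The part of RNA from tumour-like cells in this likeness was not tested. Hilpda, a lipid droplet protein, was 325 CPM in Nos2-positive and 75.9 CPM in Nos2-negative control macrophages, and 237 and 77.3 CPM in the knockdown library. The same measure in tumour-like cells, added after values were seen, gave Ndrg1 (0.34), Ero1a (0.34), Ly6c1 (0.32), Ly6a (0.31) and Mt1 (0.31). Ero1a, an oxidase of the endoplasmic reticulum, was 561 CPM in Nos2-positive and 188 CPM in Nos2-negative control tumour-like cells, and 486 and 183 CPM in the knockdown library. Ly6a, the surface antigen Sca-1, was 1357 and 525 CPM in the control, and 1333 and 680 CPM in the knockdown library. Ero1a and Ndrg1 thus stood on both lists, that of macrophages and that of tumour-like cells. Odc1 ran the other way in tumour-like cells, at 169 CPM in Nos2-positive and 219.5 CPM in Nos2-negative control tumour-like cells, and 159 and 188 CPM in the knockdown library. In macrophages it was higher beside Nos2, at 128 against 99.9 CPM and 141 against 116 CPM. Odc1 was also higher in macrophages with a UMI of the 6 tumour-like genes (128 and 141 CPM) than in those without (93.2 and 103 CPM). The part of that RNA in the Odc1 values beside Nos2 was not tested.

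Ass1 (ENSMUSG00000076441) encodes argininosuccinate synthase, which joins citrulline to aspartate. It was higher in the leukocyte classes than in tumour-like cells, at 37.8 CPM (35.4 to 40.4) in control and 29.5 CPM (27.3 to 31.9) in knockdown macrophages, and 126 CPM (96.9 to 160) and 140 CPM (78.2 to 230) in monocytes. T cells had 30.8 CPM (22.9 to 40.7) and 44.3 CPM (33.5 to 57.4), and tumour-like cells 2.88 CPM (2.56 to 3.23) and 2.62 CPM (2.30 to 2.99). Macrophages thus stood 13.1-fold and 11.2-fold above tumour-like cells, and monocytes 3.32-fold and 4.73-fold above macrophages. The 6 neutrophil markers summed to 1236 CPM in control and 74.5 CPM in knockdown monocytes, with 1 of the 6 at 0 in the control and 4 in the knockdown cells. Without monocytes that had an S100a8 or S100a9 UMI, Ass1 was 121 CPM (control, 125 cells) and 144 CPM (knockdown, 39 cells), close to the values of all monocytes. The macrophage log2 ratio was -0.36 (-0.51 to -0.21), and -0.12 (-0.28 to 0.03) with Scrublet's own threshold, an interval that includes 0. It was -0.10 among macrophages without a tumour-like UMI. Among those with one, Ass1 was 33.8 CPM (29.3 to 38.8) in the control and 19.8 CPM (17.0 to 22.9) in knockdown cells. In Nos2-positive control macrophages, which were deeper, Ass1 was 74.5 CPM (62.4 to 88.3), against 34.9 CPM (32.4 to 37.4) in Nos2-negative ones. In the knockdown library the values were 36.8 CPM (29.2 to 45.9) and 28.7 CPM (26.4 to 31.2).

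Asl (ENSMUSG00000025533), the lyase that releases arginine, was found in every class. It was 25.6 CPM (23.6 to 27.7) and 23.2 CPM (21.2 to 25.3) in macrophages, 15.2 CPM (14.4 to 15.95) and 14.5 CPM (13.7 to 15.3) in tumour-like cells, and 24.1 CPM (17.1 to 32.9) and 20.2 CPM (13.2 to 29.6) in T cells. T cells and macrophages overlapped, and tumour-like cells were 1.69-fold and 1.598-fold below macrophages. The log2 ratio of knockdown to control was -0.14 (-0.32 to 0.03) in macrophages and -0.07 (-0.17 to 0.04) in tumour-like cells, with intervals that include 0.

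Odc1 (ENSMUSG00000011179) encodes ornithine decarboxylase, the first enzyme of polyamine synthesis. It was found in 81.6% of control and 77.2% of knockdown tumour-like cells, at 205 CPM (203 to 208) and 181 CPM (178 to 184). T cells were higher, at 282 CPM (257 to 310) and 293 CPM (264 to 324), and macrophages lower, at 102 CPM (97.9 to 106) and 119 CPM (114 to 123). The log2 ratio was -0.18 (-0.21 to -0.15) in tumour-like cells and 0.22 (0.14 to 0.30) in macrophages, both well inside the fold. Tumour-like cells with 10 or more Odc1 UMIs made up 11.6% of the control and 5.74% of the knockdown library. Depth differed as well. By depth, Odc1 was 123 CPM (113 to 133) and 124 CPM (117 to 131) in tumour-like cells of 5000 to 10000 UMIs, and 153 CPM (149 to 157) and 158 CPM (154 to 162) from 10000 to 20000. Above 20000 UMIs it was 237 CPM (233 to 241) and 214 CPM (209 to 218). The libraries stood apart only in this last of the 3 bins, and Odc1 was highest there. It held 2214 control and 1456 knockdown cells, so the number of deep cells moved with the level of the whole class, and its part in the ratio was not tested.

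Among tumour-like cells the genes most like Odc1, also listed after values were seen, were Ccnd1 (0.39), Hspd1 (0.36), Ybx3 (0.36), Tnfrsf12a (0.36) and Eif1 (0.35), and the least like was the collagen gene Col3a1 (-0.41), of 10477 genes. Odc1 had an r of 0.31 (control) and 0.27 (knockdown) with the logarithm of the cell's UMIs. Ccnd1, the G1 cyclin D1, was 426 CPM in Odc1-positive and 173 CPM in Odc1-negative control cells, and 382 and 192 CPM in the knockdown library. Start regions are shown for Odc1 and Slc7a1 because they are the genes of this set with most of their UMIs in tumour-like cells that the RefSeq promoter table of build GRCm38.p6 holds. That table matched 3 of the 6 genes, the other being Ass1. Each run is the 250 bases before the annotated start, 5′ to 3′, at chr12:17544623-17544872 on the plus strand for Odc1 and chr5:148399905-148400154 on the minus strand for the outer of 2 starts of Slc7a1.
Odc1: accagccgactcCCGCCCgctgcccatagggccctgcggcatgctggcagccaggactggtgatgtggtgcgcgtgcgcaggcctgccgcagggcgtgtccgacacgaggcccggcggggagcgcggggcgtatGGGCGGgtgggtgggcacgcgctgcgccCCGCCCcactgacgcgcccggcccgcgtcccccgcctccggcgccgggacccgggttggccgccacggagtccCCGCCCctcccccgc
Slc7a1: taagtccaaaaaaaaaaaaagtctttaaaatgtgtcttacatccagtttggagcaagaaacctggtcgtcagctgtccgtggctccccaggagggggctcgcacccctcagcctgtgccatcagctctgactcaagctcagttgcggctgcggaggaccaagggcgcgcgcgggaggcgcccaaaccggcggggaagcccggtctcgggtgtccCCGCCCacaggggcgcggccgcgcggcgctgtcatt
Capitals mark GGGCGG, the GC box bound by Sp1-type factors, on either strand. Odc1 has 4 and Slc7a1 has 1, and 33.0% of 32536 distinct start windows of this length hold at least 1. Another 4 motifs were searched on both strands and are in neither of the windows shown: the E-box CACGTG (in 6.04% of all windows), the TATA box TATAAA (12.3%), the CCAAT box (33.8%) and the cAMP response element TGACGTCA (1.56%). None of the motifs overlaps another in these windows. GC content was 80.0% for Odc1 and 62.4% for Slc7a1, with a median of 52.4% over all windows. The second start of Slc7a1, at chr5:148392816-148393065, has no GC box, 1 TATA box and a GC content of 50%. A match describes the letters only.

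The other genes of the pathway were read from fixed lists. In tumour-like cells no gene was past the fold in the lists of arginine transport (2 of 4 countable), urea cycle and ornithine (3 of 6), polyamines (12 of 13), proline (4 of 4), creatine and methylarginine (4 of 5) or nitric oxide synthases and cofactor (6 of 7). These are 31 countable genes, beside 2.23% of all genes higher and 0.736% lower. Nos1, the neuronal synthase, was just short of the 100 UMIs, with 92 in control and 31 in knockdown cells, a log2 ratio of -1.32 (-1.96 to -0.72). The polyamine list had a median log2 ratio of -0.0035 there, with Srm, the spermidine synthase, at 135 and 142 CPM and Eif5a, the factor that carries hypusine, at 1963 and 1898 CPM. In macrophages none of 13 polyamine genes was past the fold, beside 10.5% of all genes higher and 1.26% lower, and their median was 0.02. Oaz1, the antizyme that inhibits ornithine decarboxylase, was 1114 and 1131 CPM. Sat1, the acetylase that starts polyamine breakdown, was 681 and 668 CPM, and the oxidase gene Paox was 43.1 and 29.2 CPM, a log2 ratio of -0.56 that passes the fold with TMM scaling (-0.66).

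In macrophages, 3 pathway genes were higher in the knockdown library: the transporter gene Slc7a6 (8.68 and 13.1 CPM, log2 ratio 0.59, and 0.49 with TMM scaling, inside the fold), the proline enzyme Pycr1 (3.03 and 6.41 CPM, 1.08) and the methylarginine hydrolase Ddah2 (23.2 and 54.1 CPM, 1.22). These make 1 of 3, 1 of 4 and 1 of 4 countable genes of their lists, and 3 of the 30 countable genes of the 6 pathway lists, near the 10.5% of all macrophage genes that were higher. Ddah1, the paralog of Ddah2, was 7.67 and 5.44 CPM (-0.50), and lower past the fold with TMM scaling (-0.60). All 3 were higher in control tumour-like cells, at 19.0, 23.0 and 168 CPM, than in control macrophages, and the part of RNA from that class in their ratios was not tested. None of the 5 countable genes of nitric oxide synthesis and its cofactor was past the fold. Gch1, which makes the cofactor tetrahydrobiopterin, was 55.5 and 41.4 CPM. Nos1 and Nos3 had 5 and 21 UMIs in control macrophages, and 4 and 17 in knockdown macrophages. The urea cycle genes Cps1 and Nags had no UMI in macrophages and Otc had 3 and 2. The mitochondrial carrier genes Slc25a15 (76 and 70 UMIs) and Slc25a29 (31 and 50 UMIs) were also under 100 UMIs, which left Oat, the ornithine aminotransferase, as the countable gene of that list, at 63.2 and 57.2 CPM. The creatine gene Gatm was 666 and 506 CPM.

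Genes of macrophage state were read the same way. Of the 10 countable alternative activation genes in macrophages, 4 were lower in the knockdown library and none was higher, beside 1.26% of all genes lower. With TMM scaling 6 were lower, beside 2.14% of all genes, the added ones being Mrc1 (-0.59) and Trem2 (-0.60). The 4 were the chitinase-like gene Chil3 (31.8 and 2.97 CPM, log2 ratio -3.42), Spp1, or osteopontin (1006 and 457 CPM, -1.14), the elastase Mmp12 (186 and 94.7 CPM, -0.97) and Gpnmb (73.2 and 43.1 CPM, -0.76). Chil3 was 1427 CPM in control and 466 CPM in knockdown monocytes, far above its macrophage level. Within the macrophage gate the 6 neutrophil markers summed to 66.2 CPM (control, Ly6g at 0) and 33.1 CPM (knockdown, Ly6g and Retnlg at 0), with S100a8 at 14.2 and 0.418 CPM and S100a9 at 20.1 and 0.0465 CPM. The neutrophil marker Csf3r did not follow them, at 30.4 and 32.5 CPM, and made up most of the knockdown sum. The 6 monocyte markers, none at 0, summed to 211 and 221 CPM, with Ly6c2 at 27.0 and 11.5 CPM. The sum is not particular to monocytes, since Vcan of this list was 238 CPM in control tumour-like cells and 31.9 CPM in control macrophages. The 7 macrophage markers, which include Mrc1, summed to 56207 and 46487 CPM, with Cd68 at 445 and 330 CPM, Adgre1 at 228 and 171 CPM and Csf1r at 276 and 219 CPM. The tumour-like and fibroblast lists were higher in the knockdown gate, as given in the opening. Their part in these ratios was not tested. Of 11 inflammatory genes 2 were higher, the interferon gene Ifnb1 (30.2 and 58.8 CPM, 0.96) and the interferon-induced Ifit2 (186 and 337 CPM, 0.86), and none was lower, beside 10.5% of all genes higher, although Il1a passed the fold downward with TMM scaling (-0.66). Of 16 regulators none was past the fold in macrophages, with Cebpb, a transcription factor of myeloid cells, at 604 and 500 CPM and Irf1, a known activator of Nos2, at 203 and 246 CPM. In tumour-like cells 1 of 14 regulators was past it, the interleukin 4 receptor gene Il4ra, at 4.34 and 7.70 CPM (0.83). Of 7 countable alternative activation genes there, Spp1 (43.8 and 20.01 CPM, -1.13) and Mmp12 (2.37 and 1.54 CPM, -0.63) were lower, and both stood far higher in macrophages. Of 9 inflammatory genes there, Tnf (2.13 and 3.93 CPM, 0.89), Ptgs2 (7.73 and 14.5 CPM, 0.91) and Cxcl10 (331 and 508 CPM, 0.62, and 0.58 with TMM scaling, inside the fold) were higher. Il12b (1.02 and 0.138 CPM, -2.88) and Ccl5 (177 and 112 CPM, -0.66) were lower in the knockdown tumour-like cells. Of all genes of the class, 2.23% were higher and 0.736% lower. Tnf was 288 and 369 CPM in macrophages, far above its tumour-like level, and the part of macrophage RNA was not tested.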

How the data were processed

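A pair of 10x Genomics libraries were used, 1 per group, with 11977 control and 12853 knockdown cell barcodes and 165824226 and 138402860 UMIs. The deposited matrices hold raw UMI counts, made by the authors with Cell Ranger, version 6.1.0 per the file headers and version 3.1.0 per the submitters' processing notes. The genome build, the annotation and strand settings are not given in the sources used here.

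Cells with under 200 genes (34 control, 19 knockdown) or over 20% mitochondrial UMIs (135 and 62) were dropped, and doublets were then taken out by rank of the Scrublet score at 0.8% per 1000 cells (1148 and 1322), leaving 10662 and 11450 cells. A cell that met 2 gates was counted as macrophage, then monocyte, then tumour-like; 12 control and 34 knockdown cells met the macrophage and tumour-like gates. T cells had at least 5 UMIs of Cd3d, Cd3e and Cd3g, under 20 of Lyz2 and under 5 of C1q per 10000. UMIs were summed per class and library, CPM is per 1000000 UMIs of all genes in those cells, and shares are of cells with at least 1 UMI. Intervals are 95%: Poisson for CPM, Clopper-Pearson for shares, and conditional binomial for log2 ratios (knockdown over control). A count of 0 allows 3 counts. Tools were Python 3.11.15, numpy 2.4.6, scipy 1.17.1, scanpy 1.11.5, R 4.3.3, edgeR 4.0.16 for TMM factors and DESeq2 1.42.0 for size factors. The code for ratios was tested on simulated data.

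The genes, lists and gates were chosen with earlier results of these data known. The 6 genes named in the opening are given, and other genes of the set are not reported here. List genes are named if past 1.5-fold with at least 100 UMIs in 1 library, or as a high member of their list; Paox, Sat1, Il1a, Srm, Irf1, Nos1, Nos3 and the urea cycle genes were named after their values were seen. Genes most like Nos2 and Odc1 are the 5 with the highest mean r among genes in at least 5% of cells. Alternatives were other doublet rules, scalings, gates, depths, cell weights and filters. The gene Pycr3 of the proline list was not matched and is not analysed here.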

Additional observations from a re-analysis of the deposited data

Results flagged for a closer look

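Odc1 had ratios of opposite sign in the 2 large classes. Its log2 ratio of knockdown to control was 0.22 (0.14 to 0.30) in macrophages and -0.18 (-0.21 to -0.15) in tumour-like cells, with 1 library per group, so the difference between them was not tested. The macrophage value was 0.03 with no doublet removal and 0.04 with Scrublet's own threshold, while the tumour-like value lay between -0.22 and -0.16 under all settings run. Macrophages of the knockdown library also held more tumour-like transcripts (192 against 69.5 CPM), and Odc1 was higher in macrophages with such a UMI (128 CPM in the control, 141 CPM in the knockdown library) than in those without (93.2 and 103 CPM). Among macrophages without such a UMI the log2 ratio was 0.14 (0.04 to 0.25), and it was 0.12 in all macrophages with TMM scaling. The part of RNA from tumour-like cells was not tested.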

How the results depend on the processing

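Weighting every cell equally moved the log2 ratio of Nos2 in macrophages from 0.41 to 0.0024. With only cells of at least 5000 UMIs that ratio was 0.60 (0.35 to 0.85), past the fold. The Nos2 share of macrophages differed by 0.741 percentage points (-0.19 to 1.66), by -0.467 (-1.39 to 0.457) with Scrublet's own threshold, and by 1.20 (0.343 to 2.09) after thinning and 1.14 (0.227 to 2.05) with looser gates. Slc7a1 in macrophages turned from 0.52 to -0.083 with Scrublet's own threshold and -0.12 without a tumour-like UMI, the latter a setting chosen after seeing the data. With only cells of at least 5000 UMIs it rose to 0.72 (0.51 to 0.94), past the fold. The causes were not tested.

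Genes past 1.5-fold numbered 1263 in macrophages, 130 in monocytes and 367 in tumour-like cells. With at least 20 UMIs they were 2551, 1446 and 1300, and with no filter beyond 1 UMI in each library 5625, 5014 and 4425, since more genes with few UMIs enter. With no doublet removal macrophages had 537. Of the called genes 89.3% were higher in macrophages and 80.3% with TMM. Low counts limit what can be read of Nos2 in macrophages (322 and 388 UMIs) and of all 6 genes in monocytes (144 and 40 cells). No paired analysis was possible because each group has 1 library.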

Other observations

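Cells that met no gate numbered 1081 (control) and 1256 (knockdown) and enter no comparison above. Their Nos2 level was 30.5 CPM (27.2 to 34.2) and 26.4 CPM (23.0 to 30.1). Odc1 was 239 CPM and 209 CPM there, and Slc7a1 56.8 CPM and 64.9 CPM.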
